A study of Mus musculus with 2 samples.

Results

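The receptor genes Flt3, Csf1r, Csf2ra, Csf2rb, Csf3r, Il7r, Il6ra and Il3ra were followed through the cell types of the mouse foetal liver. They are 8 of the 27998 genes counted, were found by their symbols in the deposited gene tables, and each symbol was carried by 1 gene identifier. The cells came from 1 wild-type liver at E12.5, counted in days of embryonic development, of a strain labelled C57BL/6 and given as C57BL/6J in the methods. They had been sorted by flow cytometry to remove debris, dead cells and doublets, and were processed as 2 libraries that are labelled technical replicates, although the design text speaks of 2 suspensions. These 2 libraries compared no treatment or genotype, so both form a single group. The comparisons are between the cell types that the authors named by clustering the RNA of the same cells. With 1 liver there was no test between animals, and because the types were made from these counts, levels by type are descriptions.

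Cytokine receptors are surface proteins through which blood progenitors receive signals to survive, divide and mature. FLT3 and the receptor of CSF1 (the product of Csf1r) are receptor tyrosine kinases, whereas the others are chains without a kinase of their own that act through Janus kinases (JAKs) and the transcription factors called STATs. CSF2RA and IL3RA bind GM-CSF and interleukin 3 and signal through the common beta chain CSF2RB. The foetal liver is the main site of blood formation at this stage and holds progenitors, their erythroid, megakaryocyte and myeloid progeny, and resident macrophages.

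The table of cell types gave 10537 cells in 9 types. The cells named HPSC (hematopoietic stem and progenitor cells) numbered 213 in library 1 and 208 in library 2, granulocytic cells (G) 157 and 130, monocytes and Kupffer cells, the macrophages of the liver (Mo/KC), 56 and 58, and megakaryocytes (Mk) 79 and 56. Erythroid-committed progenitors (Ery) numbered 932 and 818 and erythroblasts (Eryb) 3820 and 3612. The remaining types were EryP, marked by embryonic globin genes, endothelial cells (EC) and hepatoblasts (Hepa). A unique molecular identifier (UMI) marks 1 captured RNA molecule, and the UMIs of a gene were summed over the cells of a type and expressed as counts per 1e+06 UMIs of that type (CPM). HPSC held 3449066 UMIs in library 1 and 3124711 in library 2, with a median of 16053 and 14956 UMIs per cell. Depths were lower in Mo/KC, with 678685 and 885398 UMIs, and in Mk, with 770048 and 1014143, and lowest in EC, with 262042 and 566779. Intervals are exact 95% Poisson intervals for CPM and 95% Clopper-Pearson intervals for shares of cells, and both cover counting error only. Of the marker genes listed, 9 of 10 HPSC genes were present in HPSC and all 4 early and 6 late granule genes in G. In Mo/KC 8 of 10 Kupffer and 5 of 6 monocyte genes were present, and in Mk 8 of 8 megakaryocyte genes. Of the HPSC genes, 5 were also present in G, 1 in Mo/KC, 4 in Mk and 3 in Ery. Of the monocyte genes, 4 were also present in G, 2 in HPSC and 1 in Mk. The monocyte genes summed to 3650 and 3146 CPM in G and to 2870 and 2488 CPM in Mo/KC. Of 10 erythroid genes, 0 were called present in Ery by limits set against Eryb. Their sum was 22686 and 49059 CPM in Ery and 367400 and 591902 CPM in Eryb. HPSC also carried RNA of the early granule genes Mpo, with 739.9 and 725 CPM, and Prtn3. Among the kept cells, 31 barcodes occurred in both libraries.

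Promoter sequences show the start regions of 4 receptors that differed in where their RNA was found, Flt3 and Il7r, which reached the presence limits used here in HPSC alone, and Csf3r and Csf2ra, which also did so in G and Mo/KC. They are RefSeq sequences of build GRCm38.p6, written 5′ to 3′ on the strand of the gene. The window has a fixed length and ends 50 bases after the start annotated for these sequences. Capitals mark the letters GAGGAA (found in sites of the myeloid factor PU.1), TTGCNNAA (found in sites of C/EBP factors) and TGTGGT (found in sites of RUNX factors), searched on both strands.
Flt3, chr5:147400440-147400739, minus strand: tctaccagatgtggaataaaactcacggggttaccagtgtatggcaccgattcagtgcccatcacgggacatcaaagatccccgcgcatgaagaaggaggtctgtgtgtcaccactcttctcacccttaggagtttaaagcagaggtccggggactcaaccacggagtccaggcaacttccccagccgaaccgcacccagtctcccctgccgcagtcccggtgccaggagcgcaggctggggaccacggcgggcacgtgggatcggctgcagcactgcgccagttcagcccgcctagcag
Il7r, chr15:9529827-9530126, minus strand: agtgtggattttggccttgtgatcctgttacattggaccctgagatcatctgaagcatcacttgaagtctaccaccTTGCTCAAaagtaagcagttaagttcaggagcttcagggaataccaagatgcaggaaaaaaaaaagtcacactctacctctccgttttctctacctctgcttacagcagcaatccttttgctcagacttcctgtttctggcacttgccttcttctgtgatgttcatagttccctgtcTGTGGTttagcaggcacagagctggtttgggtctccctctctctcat
Csf3r, chr4:126024409-126024708, plus strand: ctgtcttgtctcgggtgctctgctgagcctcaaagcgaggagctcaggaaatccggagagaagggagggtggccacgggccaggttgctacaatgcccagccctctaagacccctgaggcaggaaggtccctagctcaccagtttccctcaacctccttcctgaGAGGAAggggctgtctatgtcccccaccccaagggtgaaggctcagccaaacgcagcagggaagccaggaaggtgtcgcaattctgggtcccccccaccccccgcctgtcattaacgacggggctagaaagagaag
Csf2ra, chr19:61228369-61228668, minus strand: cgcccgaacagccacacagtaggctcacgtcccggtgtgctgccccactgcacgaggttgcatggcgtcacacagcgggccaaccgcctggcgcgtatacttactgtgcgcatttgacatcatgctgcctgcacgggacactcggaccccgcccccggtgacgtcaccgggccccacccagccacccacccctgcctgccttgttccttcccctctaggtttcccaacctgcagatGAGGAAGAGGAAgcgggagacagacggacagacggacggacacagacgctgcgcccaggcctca
GAGGAA stood in 28.3% of the 32851 promoters of this length in the table, TTGCNNAA in 10.8% and TGTGGT in 16.8%. The Csf2ra window held GAGGAA in 2 adjoining copies and the Csf3r window held it in 1 copy. The Il7r window held TTGCNNAA and TGTGGT once each, and the Flt3 window held none of these letters. Among the other windows in the table, that of Il6ra held 1 copy of GAGGAA and that of Il3ra 1 of TTGCNNAA. Csf1r and Csf2rb were not in the table. These matches describe letters and are not binding sites.

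In the GENCODE vM21 annotation of GRCm38, Flt3 (ENSMUSG00000042817) spans chr5:147330741-147400489, Il7r (ENSMUSG00000003882) chr15:9505788-9530176, Csf3r (ENSMUSG00000028859) chr4:126024550-126044440 and Il6ra (ENSMUSG00000027947) chr3:89864059-89913196. Csf2ra (ENSMUSG00000059326) spans chr19:61223957-61228429, Il3ra (ENSMUSG00000068758) chr14:14346275-14356011 and Csf2rb (ENSMUSG00000071713) chr15:78325752-78353847, while Csf1r (ENSMUSG00000024621) is on chromosome 18. Csf2rb lies close to its near-identical neighbour Csf2rb2 (chr15:78282507-78305721), and reads that match both could not be assigned, so the levels of this pair are uncertain. Flt3, Il6ra and Il3ra each overlap an annotated antisense RNA and Csf1r overlaps Hmgxb3 on the opposite strand. Whether strand was used in counting was not given in the sources used here.

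RNA of all 8 receptors was found in HPSC, and 6 of them were also found in G and in Mo/KC. Csf1r, Csf2ra, Csf2rb, Csf3r, Il6ra and Il3ra were shared by HPSC with both myeloid types, Flt3 and Il7r with neither, and none of the 8 with Mk or Ery. A receptor was called present in a type when, in each library, it reached 10 CPM, 5 times its level in Eryb, and more than its level in free RNA, the RNA outside cells as measured in barcodes with 1 to 50 UMIs. Shared means present in both types. Of the 15660 genes with a UMI in both libraries, 11.7% were present in HPSC, 7.01% were shared by HPSC and G, 6.57% by HPSC and Mo/KC, 5.91% by HPSC and Mk and 3.83% by HPSC and Ery. Among the 1833 genes present in HPSC, 59.9% were also present in G, 56.1% in Mo/KC, 50.5% in Mk and 32.7% in Ery, beside 6, 6, 0 and 0 of the 8 receptors. Since Eryb follow from Ery, genes that both express at like levels could not be called present in Ery.

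**Figure D1:**
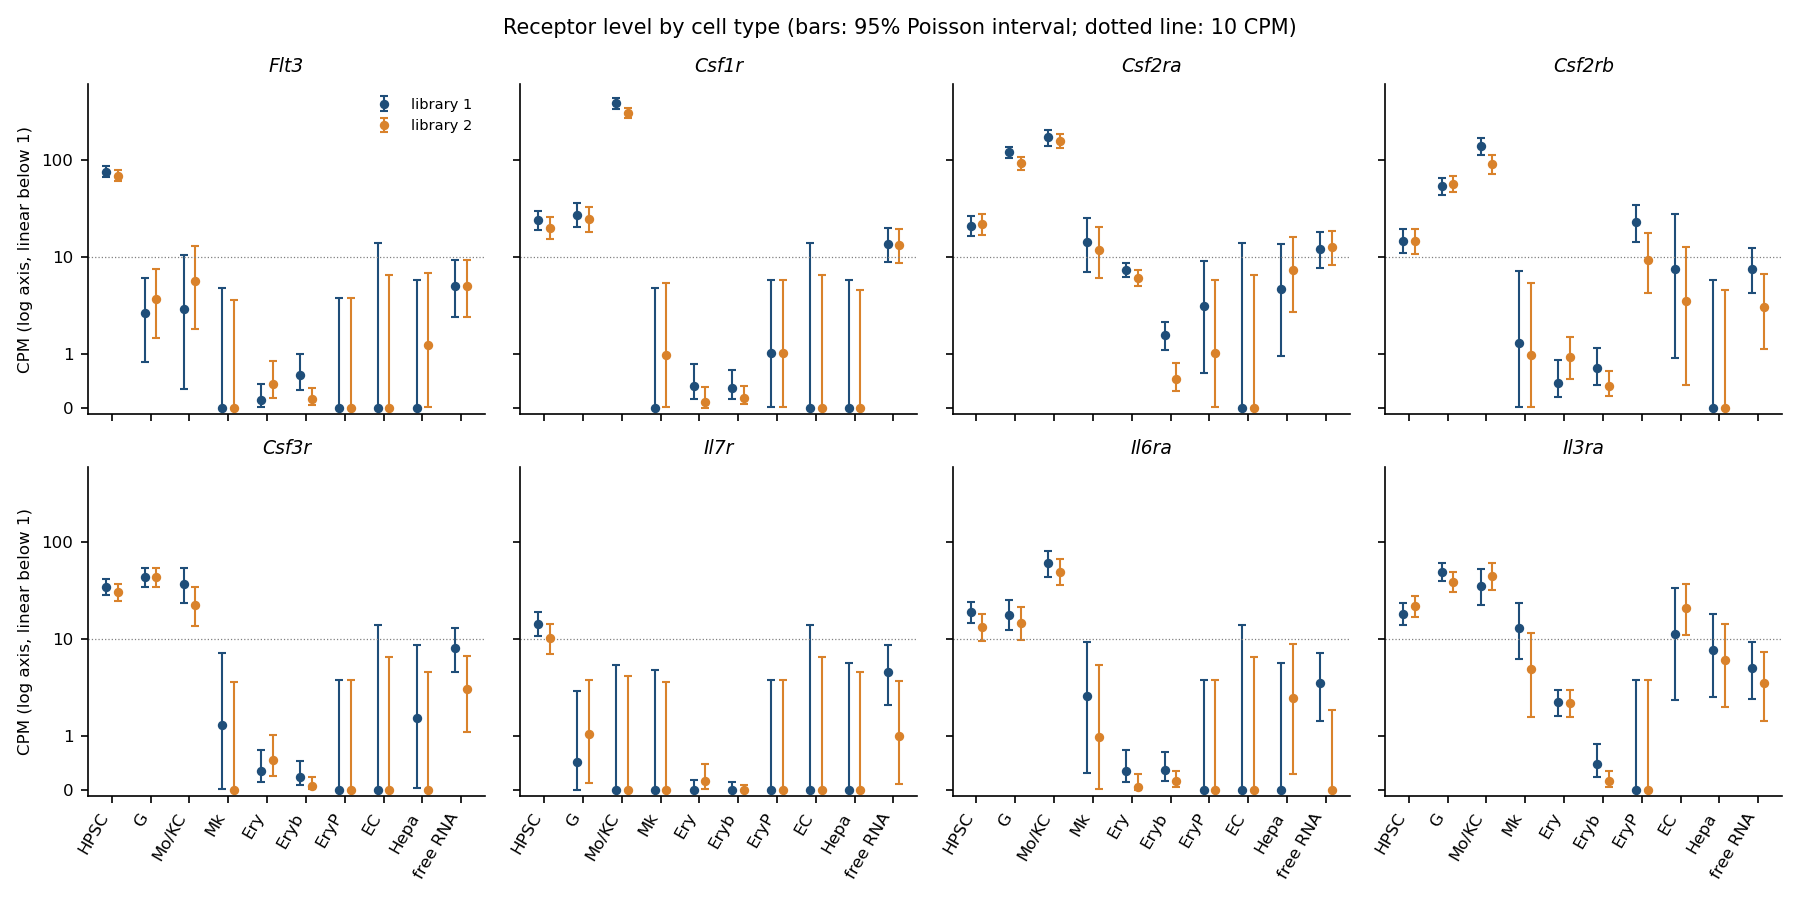
Level of each receptor (CPM, log axis that is linear below 1) in 9 cell types and in free RNA, with 1 point per library and its 95% Poisson interval, and a dotted line at 10 CPM. Flt3 and Il7r stand above the line in HPSC alone, and the other 6 receptors in HPSC, G and Mo/KC. Csf2ra in Mk and Il3ra in EC also lie above it in both libraries, and Il3ra in Mk and Csf2rb in EryP in library 1. Free RNA lies above it for Csf1r and Csf2ra, and Ery lies below it.

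Flt3, whose product binds FLT3 ligand and is carried by multipotent and lymphoid progenitors, had the most UMIs of the 8 receptors in HPSC. It reached 76.3 CPM (95% interval 67.3 to 86.0) in the first library and 69.1 CPM (60.2 to 79.0) in the second, with a mean of 72.7 ± 5.04 CPM (SD, n = 2 libraries). In G it was 2.64 and 3.69 CPM and in Mo/KC 2.95 and 5.65 CPM, levels near the 5.07 and 5.10 CPM of free RNA. The HPSC intervals lay far above those of every other type in both libraries, and the other types did not differ from their neighbours in the order beyond their counting error. The ratio of HPSC to G was 28.8 (12.2 to 89.6) in library 1 and 18.7 (8.93 to 47.1) in library 2. Mk held 0 Flt3 UMIs in either library, so that the level in HPSC was at least 19.6-fold and 23.4-fold higher than in Mk at its limit of 3 counts. A Flt3 UMI was seen in 118 of 213 HPSC cells (55.4%, 48.5 to 62.2%) and in 105 of 208 (50.5%, 43.5 to 57.5%), against 0.393% and 0.166% of Eryb. Thinned to 3600 UMIs per cell, a common depth at which shares of types can be compared, the shares were 22.7% and 20.6% in HPSC and at most 1.42% in G and Mo/KC. The median depth of Eryb was 5613 and 8982.5 UMIs per cell.

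Il7r encodes the chain that binds interleukin 7, the growth factor of early lymphocytes, and it had the fewest UMIs of the 8 in HPSC over both libraries. It was at 14.5 CPM (10.8 to 19.1) in the first library and at 10.2 CPM (7.005 to 14.5) in the second, so that library 2 passed the limit of 10 CPM by a margin smaller than its counting error. Free RNA held 4.56 and 1.02 CPM. These values came from 31 of 213 and 16 of 208 HPSC cells, with up to 8 UMIs in a cell. Outside HPSC, Il7r was all but absent from the counts. G held 1 and 2 UMIs, Mo/KC, Mk and Eryb held 0 in both libraries, and Ery held 0 and 3. Against the limit of 3 counts, Il7r in HPSC was at least 3.28-fold and 3.02-fold higher than in Mo/KC and at least 3.72-fold and 3.46-fold higher than in Mk. Against G, the ratio was 27.4 (4.70 to 1104) in library 1 and 9.71 (2.48 to 83.6) in library 2, intervals that small counts make wide.

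Csf1r, the receptor through which macrophages depend on CSF1, was highest in Mo/KC. There it was at 385 CPM (339 to 434) in the first library and at 306 CPM (271 to 345) in the second, and 45 of 56 and 51 of 58 cells had a UMI. HPSC and G held a much lower level that did not differ between them beyond counting error. HPSC stood at 24.1 CPM (19.2 to 29.8) and 20.2 CPM (15.5 to 25.8) and G at 27.5 and 24.8 CPM, so that Mo/KC was 15.98-fold and 15.2-fold the level of HPSC. In free RNA Csf1r was at 13.7 and 13.3 CPM, the highest of the receptors there, and the HPSC and free RNA intervals overlapped in both libraries. Eryb held 0.371 and 0.197 CPM. In HPSC, 22.1% and 21.2% of cells had a Csf1r UMI, against 0.236% and 0.194% of Eryb. The summed Kupffer markers in HPSC were at 3.77 and 8.32 CPM, with 6 and 5 of 10 genes at 0, against 3140 and 1977 CPM in Mo/KC.

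Csf3r, the receptor of the granulocyte factor G-CSF, was close to evenly spread over the 3 types that carried it. HPSC held 34.5 CPM (28.6 to 41.3) and 30.4 CPM (24.6 to 37.2), and G held 43.4 CPM (34.5 to 53.8) and 43.3 CPM (34.4 to 53.7). Mo/KC held 36.8 CPM (23.8 to 54.4) and 22.6 CPM (13.8 to 34.9). The intervals of neighbours in this order overlapped in both libraries, and the ratio of HPSC to G was 0.796 (0.596 to 1.07) in library 1 and 0.703 (0.518 to 0.956) in library 2, below 1 beyond counting error in library 2 alone. Mk held 1 and 0 UMIs and Ery 0.367 and 0.556 CPM. The list of late granule genes summed to 7014 and 9233 CPM in Mo/KC with 1 of 6 genes at 0, against 59566 and 48153 CPM in G. Of these 6, S100a8 and S100a9 alone were called present in Mo/KC, whereas Ngp, Camp, Ltf and Ly6g were not. Whether cells with such RNA add to the Csf3r level of Mo/KC was not tested.

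Il6ra, the chain that binds interleukin 6, was at 19.1 CPM (14.8 to 24.3) and 13.4 CPM (9.69 to 18.2) in HPSC. G was at 18.0 and 14.8 CPM, with a ratio of HPSC to G of 1.06 (0.694 to 1.66) and 0.910 (0.551 to 1.52), so that no difference was detectable at this depth. Mo/KC held more, 60.4 CPM (43.4 to 82.0) and 49.7 CPM (36.1 to 66.7), which was 3.16-fold and 3.70-fold the HPSC level. The intervals of Mo/KC and HPSC did not overlap in either library. In Mk there were 2 and 1 UMIs and in Ery 7 and 1.

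Csf2ra and Il3ra, the binding chains of the receptors of GM-CSF and interleukin 3, and Csf2rb, the chain they share, were lower in HPSC than in both myeloid types. Csf2ra was at 21.2 CPM (16.6 to 26.6) and 21.8 CPM (16.9 to 27.6) in HPSC, 121 and 92.3 CPM in G, and 171 and 158 CPM in Mo/KC. It had the most UMIs of the 8 receptors in G. In free RNA Csf2ra was at 12.2 and 12.8 CPM, and the HPSC and free RNA intervals overlapped in both libraries. Csf2rb followed the same order, with 14.8 CPM (11.0 to 19.4) and 14.7 CPM (10.8 to 19.6) in HPSC, 53.9 and 57.0 CPM in G and 139 and 90.4 CPM in Mo/KC. Free RNA held Csf2rb at 7.60 and 3.06 CPM, with an interval that overlapped that of HPSC in library 1 only. For these chains the intervals of HPSC, G and Mo/KC did not overlap in either library, and HPSC had 0.175 and 0.236 times the Csf2ra level of G and 0.274 and 0.258 times its Csf2rb level. The difference was smaller for Il3ra, at 18.3 CPM (14.0 to 23.4) and 21.8 CPM (16.9 to 27.6) in HPSC and 49.7 and 39.0 CPM in G. Mo/KC held 35.4 and 45.2 CPM of Il3ra, which did not differ from G beyond counting error and overlapped with HPSC in library 1 only, with a ratio of HPSC to Mo/KC of 0.516 (0.318 to 0.865) there. Csf2rb2, the interleukin 3 specific copy of the beta chain, was at 2.03 and 1.92 CPM in HPSC and was present in Mo/KC, at 17.7 and 12.4 CPM, but not in G.

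**Figure D2:**
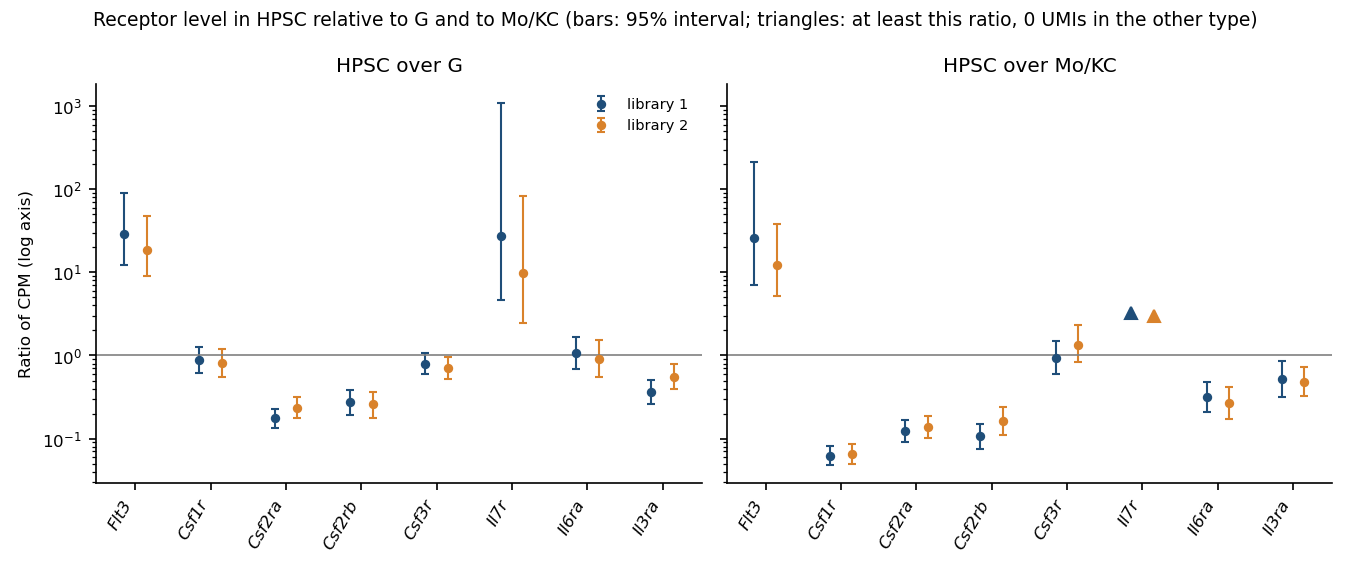
Ratio of the receptor level in HPSC to that in G (left) and in Mo/KC (right) on a log axis, with 1 point per library, its 95% interval, and triangles where the other type held 0 UMIs and the ratio is at least the value shown. Flt3 and Il7r lie above 1 on both sides, Csf2ra, Csf2rb and Il3ra lie below 1 on both sides, and Csf1r lies near 1 against G and below 0.1 against Mo/KC.

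In Mk and Ery, Csf2ra and Il3ra had the highest levels of the 8 receptors. Csf2ra in Mk was at 14.3 CPM (7.13 to 25.6) and 11.8 CPM (6.11 to 20.7), above the limits of 10 CPM and 5 times Eryb in both libraries. It was not called because free RNA held 12.8 CPM in library 2. The ratio of HPSC to Mk for Csf2ra was 1.48 (0.781 to 3.10) in library 1 and 1.84 (0.988 to 3.73) in library 2. No difference between HPSC and Mk was thus detectable for Csf2ra. Il3ra in Mk was at 12.99 CPM in library 1, where it passed all limits, and at 4.93 CPM in library 2, where it did not. The Mk cells of these libraries had medians of 5699 and 16944.5 UMIs. With library 1 alone, 2 receptors, Csf2ra and Il3ra, would be shared by HPSC and Mk, and with library 2 alone 0. Ery held Csf2ra at 7.40 CPM (6.23 to 8.73) and 6.17 CPM (5.08 to 7.43), from 141 and 111 UMIs, and Il3ra at 2.26 and 2.22 CPM. Both were above Eryb, where Csf2ra was at 1.57 and 0.535 CPM and Il3ra at 0.495 and 0.169 CPM, and the intervals of Ery and Eryb did not overlap. Both lay below their level in free RNA, which was 12.2 and 12.8 CPM for Csf2ra and 5.07 and 3.57 CPM for Il3ra. The other 6 receptors were at or below 0.945 CPM in Ery.

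Ery joined the merged clusters called Ery 1 and Ery 2 in the deposited table, and Ery 3 was part of Eryb. Csf2ra was at 10.1 CPM (8.24 to 12.3) and 8.19 CPM (6.45 to 10.2) in Ery 1, 4.46 and 4.02 CPM in Ery 2 and 1.95 and 2.08 CPM in Ery 3. Il3ra was at 3.54 and 3.66 CPM in Ery 1 and 0.871 and 0.689 CPM in Ery 2. Both chains were thus lower in Ery 2 than in Ery 1, as was Kit, the receptor of stem cell factor, with 33.9 and 31.4 CPM in Ery 1 and 4.03 and 5.74 CPM in Ery 2. For Csf2ra and Il3ra the intervals of Ery 1 and Ery 2 did not overlap in either library.

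Outside these types, 1 receptor was present. Il3ra in EC was at 11.4 CPM (2.36 to 33.5) from 3 UMIs and 21.2 CPM (10.9 to 37.0) from 12 UMIs. In EC of library 1, 3 counts stand for 11.4 CPM, so any gene with 3 UMIs reached 10 CPM there. The share of all genes called present in EC was not counted. Csf2rb in EryP was at 23.0 CPM (14.4 to 34.8) in library 1, from 13 cells with a UMI, and at 9.32 CPM (4.26 to 17.7) in library 2, from 5 cells, which missed the limit of 10 CPM. No receptor was present in Hepa.

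**Figure D3:**
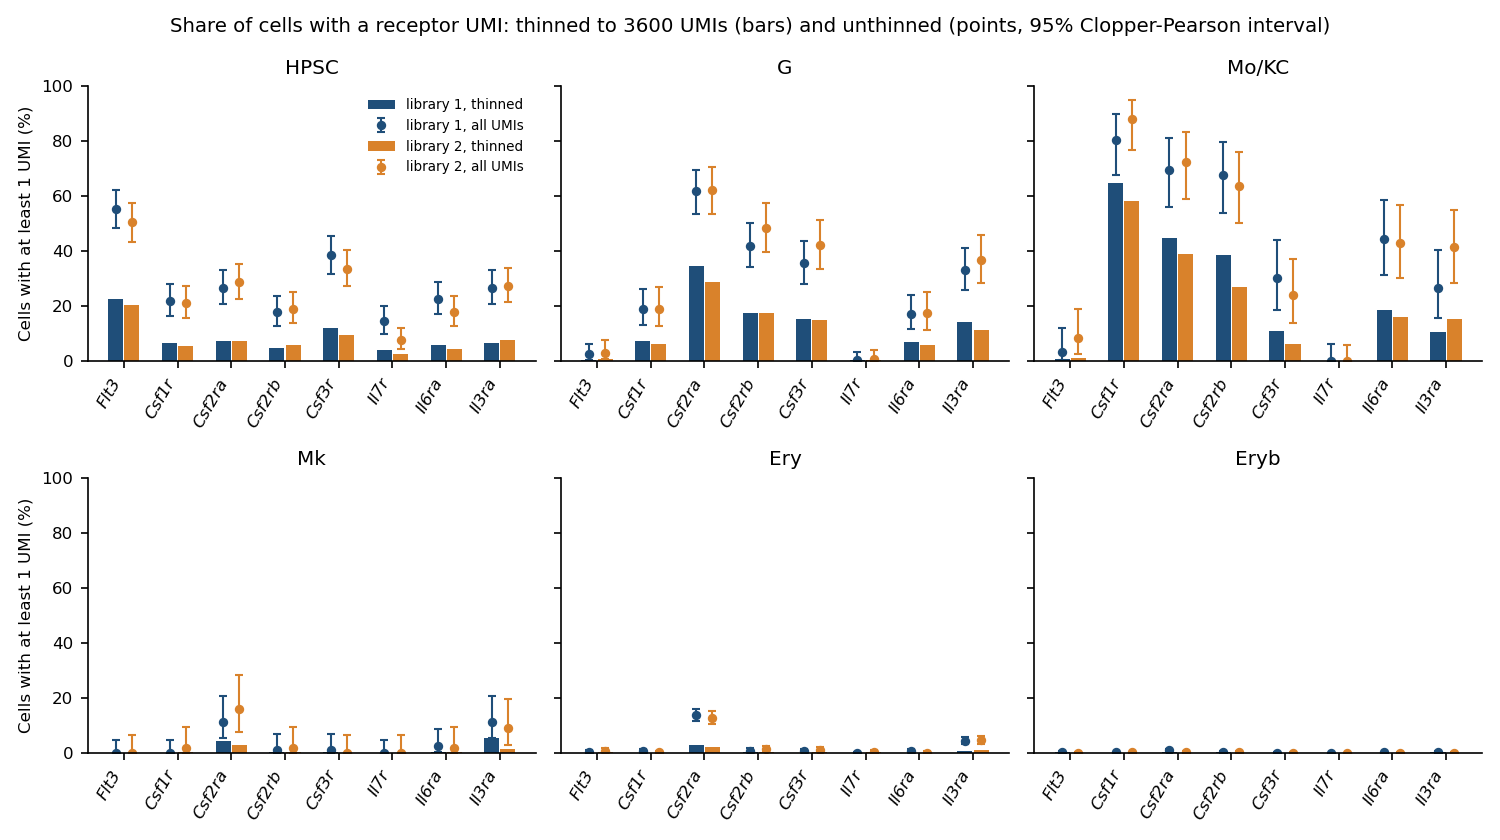
Share of cells with at least 1 UMI of each receptor (%), as bars after thinning to 3600 UMIs per cell and as points with 95% Clopper-Pearson intervals before thinning, for both libraries. Flt3 leads in HPSC, Csf2ra in G and Csf1r in Mo/KC, and in Eryb every bar lies under 1%.

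Within G, cells with more UMIs of early granule genes (Mpo, Elane, Prtn3, Ctsg) and cells with more of late granule genes (such as Ngp and Ltf) carried different receptors. Csf1r was at 35.4 CPM (25.6 to 47.7) and 36.6 CPM (26.7 to 49.0) in the 69 and 68 early cells, and at 11.9 CPM (5.12 to 23.4) and 3.003 CPM (0.364 to 10.8) in the 87 and 62 late cells. Il3ra was likewise higher in early cells, with 63.5 and 47.2 CPM against 25.2 and 24.02 CPM, with intervals apart in library 1 only. Csf2ra went the other way, with 88.2 CPM (72.3 to 107) and 52.8 CPM (40.8 to 67.4) in early and 176 CPM (146 to 211) and 165 CPM (136 to 199) in late cells. Il6ra was at 12.4 and 9.76 CPM in early and 28.2 and 24.02 CPM in late cells, with overlapping intervals. Csf2rb, at 52.8 and 58.5 CPM in early and 56.3 and 54.1 CPM in late cells, and Csf3r, at 38.7 and 38.2 against 51.9 and 52.6 CPM, did not differ beyond counting error. Late cells held 0 Flt3 UMIs in both libraries and early cells 5 and 7, with overlapping intervals. The division was made with these lists and names no cell types. The lists were within 2-fold of each other in 5 of 157 and 8 of 130 cells.

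Within Mo/KC, the 24 and 16 cells with more UMIs of Kupffer genes had more Csf1r than the 32 and 41 cells with more of monocyte genes. Csf1r was at 690 CPM (578 to 817) and 431 CPM (338 to 542) in the Kupffer side and at 262 CPM (219 to 312) and 265 CPM (228 to 306) in the monocyte side. The other 5 shared receptors had lower levels on the Kupffer side, with intervals apart in at least 1 library for Csf2ra, Csf2rb, Csf3r and Il6ra and overlapping in both for Il3ra. Csf3r came from 0 and 1 UMIs there and from 25 and 18 UMIs on the monocyte side, or 51.6 and 25.9 CPM. Csf2ra was at 124 CPM (79.1 to 184) and 53.2 CPM (24.3 to 101) against 190 CPM (153 to 233) and 187 CPM (156 to 222). Il3ra was at 10.3 and 11.8 CPM, from 2 UMIs in each library, against 45.4 and 51.8 CPM. The lists were within 2-fold of each other in 3 cells of each library.

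**Figure D4:**
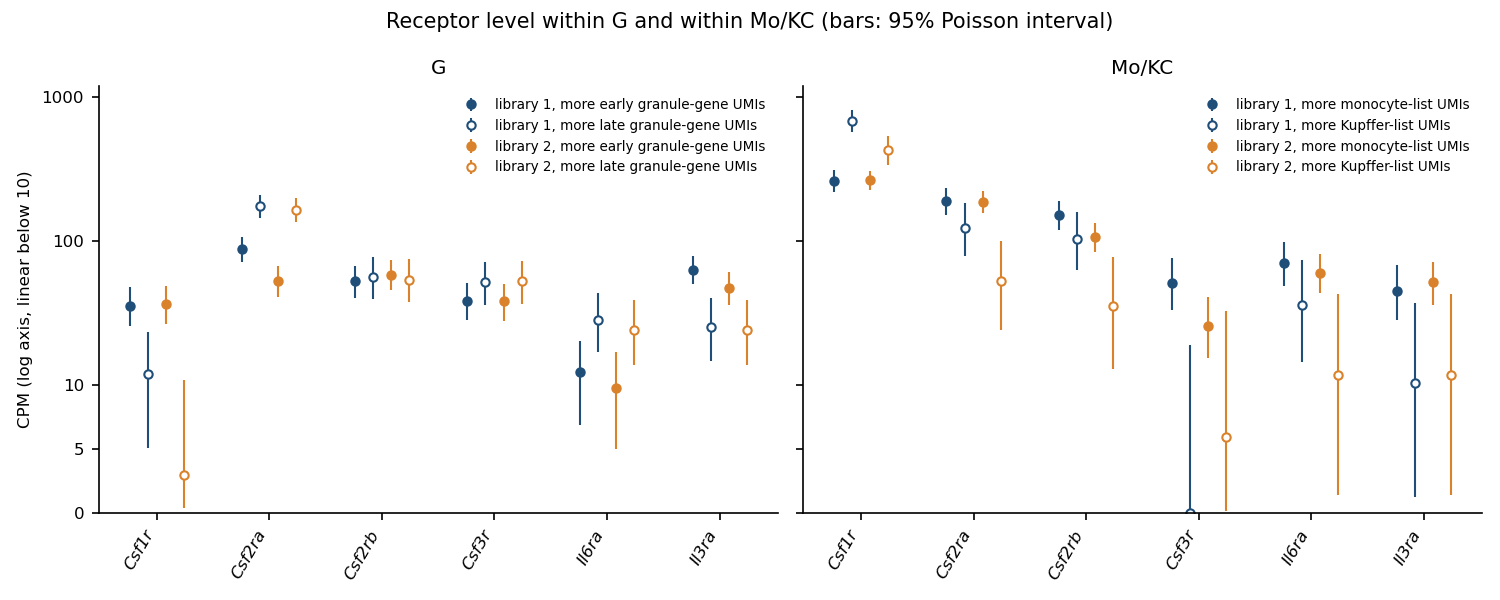
Level of the 6 shared receptors (CPM, log axis that is linear below 10) in G cells with more early or more late granule-gene UMIs and in Mo/KC cells with more monocyte or more Kupffer UMIs, with 1 point per library and its 95% Poisson interval. In G, Csf1r and Il3ra are higher in early and Csf2ra in late cells, and in Mo/KC Csf1r is higher on the Kupffer side.

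Single HPSC cells often carried UMIs of more than 1 receptor. At least 2 of the 8 receptors were detected in 153 of 213 cells (71.8%) and 128 of 208 cells (61.5%), and 0 in 18 and 23 cells. The mean was 2.24 and 2.06 receptors per cell, and 0.707 and 0.643 after thinning to 3600 UMIs, beside 1.90 and 1.64 in Mo/KC and 0.974 and 0.867 in G. A cell without a UMI of a receptor may still express it, and deeper cells show more of them.

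Il7r was nearly always seen together with Flt3. Of the HPSC cells with an Il7r UMI, 29 of 31 in library 1 and 14 of 16 in library 2 also had a Flt3 UMI. The Il7r level was 24.4 CPM (18.0 to 32.3) and 16.9 CPM (11.3 to 24.3) among cells with a Flt3 UMI, and 1.35 CPM (0.164 to 4.88) and 2.12 CPM (0.438 to 6.21) in cells without. The median depth of these cells was 16461 and 16034 UMIs with and 15948 and 13347 UMIs without a Flt3 UMI. Csf1r went with Flt3 as well, at 31.0 CPM (23.7 to 39.8) and 24.5 CPM (17.7 to 33.1) with and 14.9 CPM (9.32 to 22.5) and 14.9 CPM (9.21 to 22.7) without a Flt3 UMI, intervals that met only in library 2. Split by Csf1r, Flt3 was at 84.2 and 82.7 CPM with and 73.4 and 64.2 CPM without a Csf1r UMI. Those intervals overlapped in both libraries. Il6ra was at 23.4 and 16.3 CPM with and 13.5 and 9.92 CPM without Flt3, with overlapping intervals.

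HPSC cells with a Csf3r UMI had less Flt3 and Il7r RNA than cells without. Flt3 was at 54.5 CPM (42.8 to 68.4) and 41.7 CPM (30.9 to 54.9) in HPSC cells with a Csf3r UMI and at 90.4 CPM (78.0 to 104) and 86.2 CPM (73.6 to 100.4) in cells without, intervals that did not overlap in either library. Il7r was at 5.89 and 2.50 CPM with and 20.1 and 15.1 CPM without a Csf3r UMI, again without overlap. In the reverse split, Csf3r was at 30.5 CPM (23.3 to 39.2) and 23.4 CPM (16.7 to 31.8) with and 39.9 CPM (30.3 to 51.4) and 39.0 CPM (29.3 to 50.7) without a Flt3 UMI, which overlapped in both libraries. Split by Il7r, Csf3r was at 19.3 and 9.91 CPM with and 37.5 and 32.6 CPM without an Il7r UMI, which overlapped in both libraries too. Before thinning, a Csf3r UMI was seen in 44.7% and 47.7% of cells with and 36.7% and 29.9% of cells without a Csf1r UMI. The cells with a Csf1r UMI were deeper. As a level, Csf3r was at 29.9 and 37.1 CPM with and 36.1 and 27.9 CPM without a Csf1r UMI. These intervals overlapped in both libraries. The early granule genes together were at 1650 and 1925 CPM with and 1056 and 986 CPM without Csf3r. Csf2rb was at 11.2 CPM (7.001 to 16.9) and 12.8 CPM (8.05 to 19.4) with and 19.6 CPM (13.1 to 28.1) and 17.0 CPM (10.9 to 25.3) without a Flt3 UMI, which overlapped, and Csf2ra and Il3ra were within their counting error on both sides.

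The sum of the genes of early lymphocyte formation followed Il7r, but not every gene in it did. This sum was 355 and 505 CPM in HPSC cells with an Il7r UMI and 167 and 169 CPM in cells without. Of its 203 UMIs with Il7r in library 1, 93 were of Ikzf1 and 62 of Satb1. Ikzf1 was at 163 and 162 CPM with and 90.3 and 87.9 CPM without Il7r. Satb1 was at 109 and 92.5 CPM with and 55.9 and 52.8 CPM without. Vpreb1, also in the sum, had 2 and 0 UMIs with and 6 and 6 UMIs without Il7r, with overlapping intervals. Ebf1, a B cell factor, was at 26.3 CPM (14.7 to 43.3) and 116 CPM (80.5 to 161) with and 1.39 and 5.67 CPM without Il7r, beside 17.7 and 2.04 CPM in free RNA, and Igll1, a part of the pre-B cell receptor, had 7 UMIs in library 2 alone, all in cells with Il7r. The stem cell gene Hlf, at 15.8 and 6.60 CPM with and 47.6 and 44.3 CPM without Il7r, went the other way. Mecom had 0 UMIs with Il7r in both libraries and was at 7.30 and 8.86 CPM without, with overlapping intervals. Meis1, at 50.8 and 42.9 CPM with and 60.1 and 53.2 CPM without, did not differ beyond counting error either. Mast cell and basophil genes were at 7.01 and 0 CPM with and 80.3 and 69.5 CPM without Il7r. Most of this sum came from Gata2, which is also among the HPSC markers, and from Cpa3. Of its 231 and 196 UMIs without Il7r, 142 and 108 were of Gata2 and 87 and 85 of Cpa3. The 4 UMIs with Il7r in library 1 were all of Gata2.

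HPSC cells with a Csf1r UMI held more RNA of early granule genes and of Plac8 and less of the stem cell genes Hlf and Gata2, but not less of Cd34. Early granule genes were at 1590 and 1963 CPM with and 1183 and 1123 CPM without Csf1r. Plac8, a gene of myeloid and lymphoid progenitors, was at 1391 and 1016 CPM with and 775 and 726 CPM without. It was also higher with an Il7r UMI, at 1746 and 1813 CPM against 776 and 695 CPM. The same held with a Flt3 UMI, at 1115 and 969 CPM against 699 and 602 CPM. With a Csf3r UMI Plac8 was lower, at 724 and 552 CPM against 1075 and 960 CPM. Hlf was at 19.9 and 18.0 CPM with and 50.3 and 48.9 CPM without Csf1r. Gata2, a stem cell and mast cell factor, was at 14.4 and 21.6 CPM with and 52.2 and 39.3 CPM without Csf1r. The Gata2 intervals were apart in library 1 only. The progenitor genes Cd34 and Kit did not differ beyond counting error, with Cd34 at 399 and 385 CPM with and 379 and 365 CPM without, and Kit at 49.8 and 58.7 CPM with and 55.0 and 42.8 CPM without. Kupffer genes were at 8.86 and 16.8 CPM with and 1.96 and 5.24 CPM without a Csf1r UMI, and Adgre1, the F4/80 antigen of macrophages, had 2 and 1 UMIs in the cells with and 0 and 4 UMIs in the cells without Csf1r. Cells with a Csf1r UMI were also deeper, with a median of 18313 and 18827 UMIs against 14942.5 and 13866, and the part of depth was not tested.

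**Figure D5:**
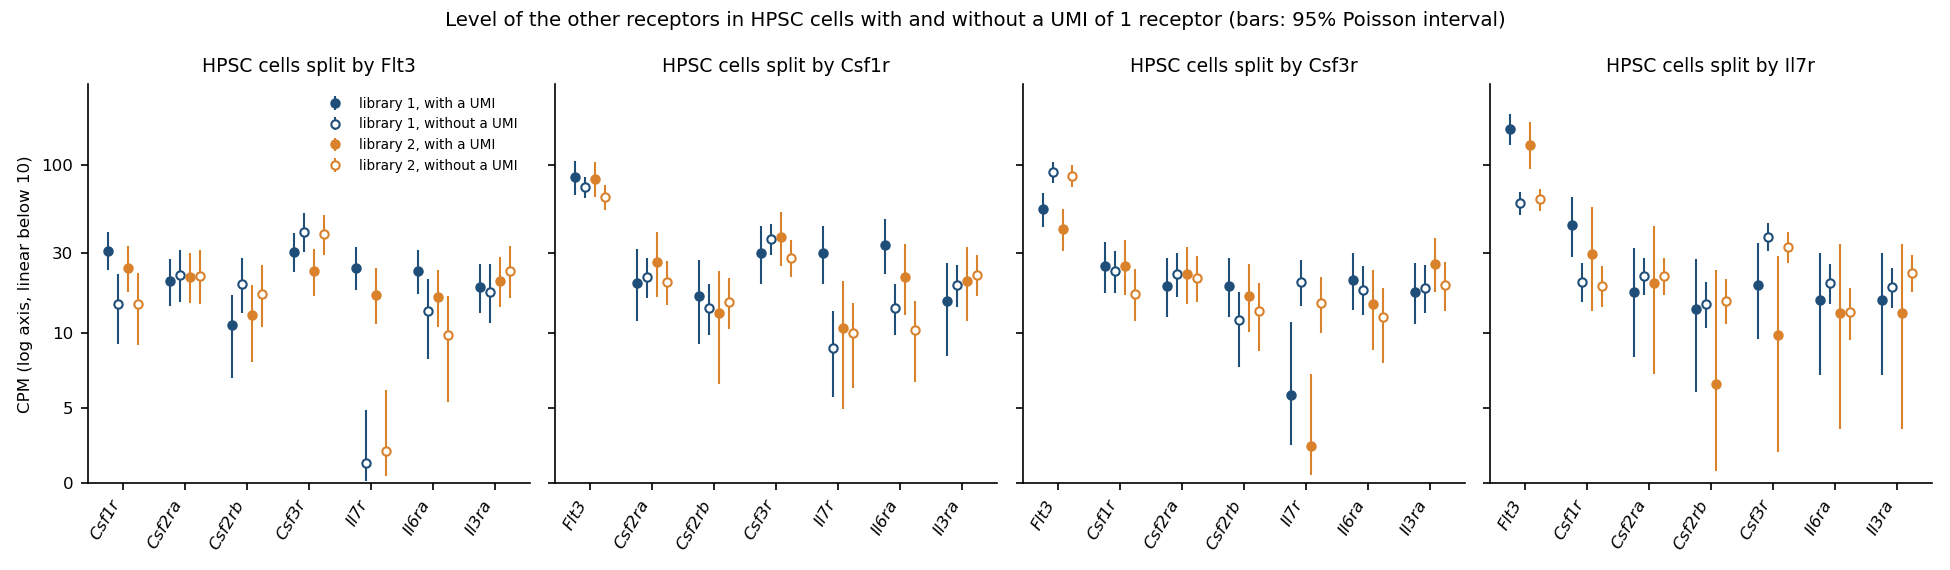
Level of the other 7 receptors (CPM, log axis that is linear below 10) in HPSC cells with (filled) and without (open) a UMI of Flt3, Csf1r, Csf3r or Il7r, with 1 point per library and its 95% Poisson interval. Il7r is near 0 in cells without Flt3, and Flt3 is lower in cells with Csf3r than in cells without.

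Chains that act together were found in the same cells at different rates. A Csf2rb UMI was found in 24.6% and 21.7% of HPSC cells with a Csf2ra UMI, in 43.3% and 54.3% of such G cells and in 82.1% and 69.0% of such Mo/KC cells. For Il3ra, the shares with Csf2rb were 10.5% and 17.5% in HPSC, 59.6% and 62.5% in G and 86.7% and 75.0% in Mo/KC. Among all cells, a Csf2rb UMI was seen in 17.8% and 19.2% of HPSC, 42.0% and 48.5% of G and 67.9% and 63.8% of Mo/KC. The median depth was 10550 and 14769 UMIs in G and 12888 and 15241.5 in Mo/KC. Il6st, which carries the signal of the interleukin 6 receptor, was at 2.90 and 4.16 CPM in HPSC, near its 2.53 and 1.02 CPM in free RNA, and highest in EC, at 26.7 and 31.8 CPM. Only 2 of 48 and 4 of 37 HPSC cells with an Il6ra UMI also had an Il6st UMI. The partners of Il7r were present in HPSC, with Il2rg, the common gamma chain, at 42.3 and 23.4 CPM and Crlf2, the thymic stromal lymphopoietin chain, at 60.6 and 54.4 CPM. Il2rg was seen in 16 of 31 and 5 of 16 and Crlf2 in 17 of 31 and 6 of 16 of the cells with an Il7r UMI, beside 92 of 213 and 63 of 208 for Il2rg and 118 of 213 and 102 of 208 for Crlf2 among all HPSC cells. Crlf2 was also present in G, Mo/KC and Mk, which held next to no Il7r.

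Of 19 other cytokine receptors listed, 7 were present in HPSC, beside 11.7% of all genes. HPSC shared 6 of them with G, 4 with Mo/KC, 3 with Mk and 2 with Ery. Among all genes, the shares were 7.01%, 6.57%, 5.91% and 3.83%. Those in HPSC included Ifngr1 (105 and 90.9 CPM) and Ifngr2, the chains of the interferon gamma receptor, Il21r and Kit. Kit was at 53.6 and 47.0 CPM in HPSC and 19.5 and 19.0 CPM in Ery. Mk and Ery, which shared none of the 8 receptors with HPSC, thus shared 3 and 2 of these, with Il21r among those in Mk and Kit and Ifngr1 in Ery. Epor, the erythropoietin receptor, was at 8.99 and 8.001 CPM in HPSC and 153 and 153 CPM in Ery, and could not be called there because Eryb held 174 and 122 CPM.

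Of 11 JAK and STAT genes, 4 were present in HPSC, namely Jak3 (23.5 and 20.8 CPM), Stat4, Stat5a and Stat6. Of 8 inhibitors of cytokine signals, 3 were present there, namely Ptpn6 (164 and 152 CPM), Cbl and Sh2b3. Among all genes with a UMI in both libraries, 11.7% were present in HPSC. Ptpn6, a phosphatase of blood cells, and the other inhibitors named were also present in G and Mo/KC. Stat5a was present in all of HPSC, G, Mo/KC, Mk and Ery. Jak1 and Jak2, which many of these receptors use, were not called. Jak1 was at 63.8 and 61.1 CPM in HPSC but at 24.1 and 15.1 CPM in Eryb, and Jak2 was at 9.57 and 4.16 CPM in HPSC. None of 13 ligand genes was present in HPSC, G, Mo/KC, Mk or Ery. Kitl, which encodes stem cell factor, was at 31.2 and 25.9 CPM in Hepa and 34.3 and 21.2 CPM in EC, whereas Csf3, Il3, Il34 and Epo had 0 UMIs in every type listed. Of 11 early lymphoid genes, Satb1 was the 1 called present in HPSC, at 64.7 and 56.6 CPM, a share near the 11.7% of all genes. Ikzf1 was not called, although it was at 90.3 and 87.9 CPM in HPSC cells without an Il7r UMI and higher in those with. It thus passed 10 CPM but not every other limit.

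The receptors were also compared by their pattern over 9 types in 2 libraries, as the Pearson correlation of log2(CPM + 1) over 18 points among 10277 genes. Points of a type share their cells' source and those of a library its depth, so the values are descriptions. Flt3 was most like Shisa8 (r = 0.964), Gpr171 (0.943) and Cox6a2 (0.933), and Il7r like Cd7 (0.974), a lymphocyte surface protein, Lax1 (0.972) and Ccr9 (0.967), a chemokine receptor of cells that enter the thymus. Csf1r was most like Ccr2 (0.989), a monocyte chemokine receptor, Mpeg1 (0.978) and Ms4a6b (0.978). Il6ra was most like Ptafr (0.972), 5430427O19Rik (0.970) and Fgd2 (0.968), and Csf3r like Kcnk12 (0.984), Bex6 (0.981) and Plac8 (0.977). Csf2ra was most like 1700026L06Rik (0.955), Prkcd (0.949) and Ppm1h (0.949), Il3ra like Slc25a45 (0.979) and S100a11 (0.969), and Csf2rb like Rsrp1 (0.882), Igsf6 (0.878) and Slfn2 (0.876). Among the receptors, the highest values were those of Csf1r with Il6ra (0.943), Csf3r with Il6ra (0.923) and Flt3 with Il7r (0.922), and the lowest was Csf2rb with Il7r (0.263).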

How the data were processed

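The authors deposited raw UMI counts per gene and barcode for 2 libraries, without normalization, and a table that gives each cell its cluster and cell type. The submitters' processing notes name bcl2fastq 2, Cell Ranger 2.1.1, build mm10 and Seurat 3.2.0, whereas the matrix header of library 1 names version 3.0.0. Authors' filters on cells were kept. Doublets had been removed by sorting before encapsulation and no others were removed, except in an alternative.

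UMIs of kept cells were summed per type and library. Library 1 held 51969226 UMIs and library 2 62738015. Shares of cells were computed unthinned and as their expected value over all draws of 3600 UMIs per cell, leaving out shallower cells. For lower bounds, a count of 0 was set to 3 counts. Intervals, thinning and the presence rule were tested on simulated data. The genes named are the 8 receptors, lists of partner chains, receptors, ligands, signal genes and markers (145 of 146 listed genes matched 1 identifier), and for each receptor the 3 genes most like it among genes with at least 50 UMIs in each library, of which some genes are not reported here. The receptors and lists were chosen with earlier results of these data known. HPSC and other types were taken from the authors' table, and no p-value is given because 1 liver was sampled. The splits of HPSC, G and Mo/KC cells are descriptions. Alternatives were each library alone, other limits of the presence rule, subtraction of free RNA, stricter cell filters, and leaving out likely doublets by scrublet score or by depth. The tools were scipy 1.17.1, pandas 2.3.3, numpy 2.4.6, scanpy 1.11.5 and matplotlib 3.10.9, run in Python 3.11.15.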

Additional observations from a re-analysis of the deposited data

Results flagged for a closer look

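Barcodes that were not called as cells but held at least 1000 UMIs and 200 genes were used in no comparison. In library 1 there were 168 of them, with 2 UMIs of the 8 receptors together, both of Csf2ra, which is under the limit of 3 counts. In library 2 there were 3311, with 222 UMIs of the 8 receptors, or 32.9 CPM (95% interval 28.8 to 37.6). Csf2ra (55 UMIs), Csf1r (53) and Flt3 (30) were the most counted there, and Il7r had 3. These were singled out because receptor UMIs lie in data outside the main measurement. For comparison, the summed level was 202 CPM in HPSC and 1.75 CPM in Eryb of library 2. Csf2ra, Csf1r and Flt3 were at 8.16, 7.86 and 4.45 CPM in these barcodes of library 2. Free RNA of that library held 12.8, 13.3 and 5.10 CPM of them. For each of the 8 receptors, the intervals of these barcodes and of free RNA overlapped in library 2. Whether these UMIs are more than free RNA was not tested.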

How the results depend on the processing

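No paired analysis was possible because both libraries belong to 1 condition and no test was made. With a minimum of 20 CPM, the number of receptors present in HPSC fell from 8 to 4 (Flt3, Csf1r, Csf2ra and Csf3r), and those shared with G and with Mo/KC from 6 to 3 each (Csf1r, Csf2ra and Csf3r). Leaving out 1 library gave 0 to 2 receptors shared with Mk, namely Csf2ra and Il3ra without library 2, and left the counts of 8, 6, 6 and 0 for HPSC, G, Mo/KC and Ery as they were. The same counts held with a minimum of 5 CPM, 2-fold or 10-fold over Eryb, 20% of free RNA subtracted, cells with 1000 or more genes and mitochondrial UMIs below 10%, and without the 4% of cells with the highest scrublet scores or cells over 2 times the median UMIs. Across the cell filters the HPSC levels stayed within 0.971 and 1.02 times their value. With 20% of free RNA subtracted, Csf1r in HPSC was 0.878 times its value, the largest shift of the 8. Of 40 levels, 21 moved by more than the SD of the libraries under that subtraction, 6 without the deepest cells and 2 without high scrublet scores. Shares of cells depend on depth, and of 40 shares 35 moved without thinning, 33 with thinning to 7200 UMIs and 23 with at least 2 UMIs required. At these depths, 3 counts stand for 0.870 and 0.960 CPM in HPSC and 4.42 and 3.39 CPM in Mo/KC, and levels below these rest on 2 UMIs or fewer.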
